A study of Mus musculus with 2 samples.

Results

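The 10 genes followed here belong to the Eph receptor and ephrin family. They were the receptor genes Epha1, Epha2, Epha4, Epha5, Epha7 and Ephb3 and the ephrin genes Efna1, Efna5, Efnb1 and Efnb2. They were taken by gene symbol, and all 10 were found once among the 32285 genes of the count tables. The 12 other Eph and ephrin genes in the tables were used only for comparison.

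The cells came from somitic gastruloids, aggregates of mouse embryonic stem cells that form trunk-like tissues, including somites, in culture. Both libraries were made from the E14 triple reporter line with an HA-FKBP12F36V degron tag on the endogenous Zeb2 protein, so the control cells carried the tag as well. Zeb2 is a zinc finger transcription repressor, and the small molecule dTAG-13 directs a protein with this tag to degradation. Each aggregate began with 300 sorted cells, received 3 µM CHIR99021, an activator of Wnt signalling, after 48 h and was embedded in 10% Matrigel at 96 h. The treated gastruloids received 100 nM dTAG-13 at 72 h and again at 96 h. The control is called untreated after its sample label, although the series' own description speaks of DMSO for the gastruloids without dTAG-13. About 32 gastruloids were pooled for each library, and 10000 live cells were loaded. At which hour the gastruloids were collected is stated in none of the sources used. With 1 library per group there was no replicate, so no difference was tested, and every interval below is a 95% interval that covers counting error only.

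Eph receptors are receptor tyrosine kinases, and ephrins are their ligands on the surface of neighbouring cells. Ephrins of class A are held by a lipid anchor and bind mainly EphA receptors, whereas ephrins of class B span the membrane and bind mainly EphB receptors. Epha4 binds ligands of both classes. Contact between a receptor-bearing and a ligand-bearing cell signals in both cells and often ends in repulsion, which keeps cell groups apart at boundaries. In the vertebrate somite, Epha4 marks the anterior part and Efnb2 the posterior part, and their meeting takes part in forming the border between segments.

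The untreated library held 7276 cell barcodes and the dTAG-13 library 7873. After filtering, 6231 and 6688 cells remained, with medians of 20073 and 20207 unique molecular identifiers (UMIs, one per captured transcript molecule) per cell. The libraries shared 14 cell barcode sequences. Transcripts of Zeb2 itself stood at 67.9 UMIs per 1000000 UMIs counted (CPM) in the untreated and 94.6 CPM in the dTAG-13 library. The degron acts on the protein, so this level does not check the labels.

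Lineages were read with 8 marker genes. A cell was called positive for a marker with at least 2 UMIs of it, which is called a gate here. The gates held 524 untreated and 765 dTAG-13 cells for Zfp42, 258 and 895 for Pim2, and 319 and 1338 for Sfn. Sox2 had 2989 and 3047 cells, T had 1387 and 959, and Tbx6 had 507 and 179. Meox1 had 913 and 626, and Sox17 had 110 and 164. Gates overlapped: 25.9% of untreated and 32.1% of dTAG-13 cells passed 2 or more, and 86.6% and 86.1% of Zfp42-positive cells were also Sox2-positive. Lists of 10 marker genes checked what the gates held. The 10 naive pluripotency genes were all at least 2-fold higher in Zfp42-positive than in Zfp42-negative cells of both libraries. Of the presomitic genes 8 of 10 were so in Tbx6-positive cells of both libraries, of the somite genes 7 of 10 in Meox1-positive cells, and of the endoderm genes 9 of 10 in Sox17-positive cells. Of 10 endothelial genes, 4 were so in untreated and 0 in dTAG-13 Sox17-positive cells, so what this gate held differed between the libraries. The neural list was met by 4 of 10 genes in untreated and by 0 of 10 in dTAG-13 Sox2-positive cells, so that the Sox2 gate cannot be called neural. In the Sfn gate 7 and 6 of 10 surface ectoderm genes passed, in the Pim2 gate 9 and 5 of 10 epiblast genes, and in the T gate 6 and 9 of 10 neuromesodermal and notochord genes.

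Over whole libraries, the treated gastruloids held less Epha5 and more Efnb1, Efnb2 and Efna5 transcript. A level, in CPM, is the UMIs of a gene per 1000000 UMIs of the cells in question. A ratio is the log2 of dTAG-13 over untreated after 1 CPM was added to each level, its interval is that of the plain ratio of counts, and a gene was counted as higher or lower at 1.5-fold or more with a mean of at least 5 CPM. Of the 10 family genes, 9 had that mean, 1 was counted as lower and 0 as higher. Among all 9548 genes with that mean, 1.08% were lower and 2.47% were higher by the same rule. The median ratio of the 10 genes was 0.14, against 0.02 over all genes with the mean.

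Epha5, a receptor for class A ephrins known from axon guidance, was the gene counted as lower. Its level was 53.4 CPM without and 35.1 CPM with dTAG-13, for a log2 ratio of -0.59 (-0.66 to -0.55). This lay just past the 1.5-fold limit, and under 7 other settings the ratio was between -0.64 and -0.54. Epha4 stood at 36.2 and 40.0 CPM, Epha1 stood at 11.3 and 11.8 CPM, Epha7 at 7.84 and 8.05 CPM, and Epha2 at 5.54 and 6.23 CPM, with ratios from 0.03 to 0.14. These 4 receptors thus differed far less between the libraries than Epha5. Ephb3, an EphB receptor, stood at 1.18 and 1.83 CPM and had too few counts for the rule. Epha1 carries a caution: Zyx, on the opposite strand, overlaps the 3′ end of Epha1, and no source used here states whether reads were assigned by strand.

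Among the ligands, Efnb1, an X-linked class B ephrin, stood at 29.0 CPM without and 41.1 CPM with dTAG-13, a ratio of 0.49 (0.45 to 0.56). Efnb2, the class B ephrin of posterior somites and arteries, stood at 13.2 and 16.8 CPM, a ratio of 0.32. Efna5, a class A ephrin known from the mapping of visual axons, stood at 9.73 and 12.3 CPM, a ratio of 0.31 (0.24 to 0.44). These 3 ligands had intervals above 0 without reaching 1.5-fold. Efna1, the fourth ligand and a class A ephrin, went the other way, from 5.59 to 4.41 CPM, a ratio of -0.28 (-0.49 to -0.19).

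The promoters of the 4 genes with the largest absolute ratios among those with the mean are shown here because Zeb2 binds DNA at CACCT half-sites. Each is the 300 bases from 250 before to 50 after the transcription start in RefSeq on GRCm38.p6, read 5′ to 3′ on the strand of the gene. Capitals mark CACCT or its reverse complement AGGTG. Epha5 lies at chr5:84417333-84417632 on the minus strand, Efnb1 at chrX:99135811-99136110 on the plus strand, Efnb2 at chr8:8661193-8661492 on the minus strand and Efna5 at chr17:62881268-62881567 on the minus strand.
Epha5: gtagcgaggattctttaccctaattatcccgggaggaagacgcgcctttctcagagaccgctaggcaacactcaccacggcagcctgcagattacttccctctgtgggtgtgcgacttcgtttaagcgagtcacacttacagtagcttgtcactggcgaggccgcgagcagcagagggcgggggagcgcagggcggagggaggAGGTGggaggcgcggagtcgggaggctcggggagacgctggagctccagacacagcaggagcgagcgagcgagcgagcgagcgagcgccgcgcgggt
Efnb1: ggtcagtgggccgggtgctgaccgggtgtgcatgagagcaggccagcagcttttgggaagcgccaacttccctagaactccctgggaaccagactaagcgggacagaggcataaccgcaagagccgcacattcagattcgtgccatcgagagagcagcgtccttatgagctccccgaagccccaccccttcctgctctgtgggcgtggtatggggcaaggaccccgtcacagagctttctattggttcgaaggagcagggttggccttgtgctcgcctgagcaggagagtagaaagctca
Efnb2: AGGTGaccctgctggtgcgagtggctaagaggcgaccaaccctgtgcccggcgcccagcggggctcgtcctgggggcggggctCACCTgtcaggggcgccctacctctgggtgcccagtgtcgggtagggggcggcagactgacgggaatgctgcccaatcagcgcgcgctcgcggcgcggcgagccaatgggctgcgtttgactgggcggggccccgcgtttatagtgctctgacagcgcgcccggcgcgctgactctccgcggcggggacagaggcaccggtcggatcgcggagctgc
Efna5: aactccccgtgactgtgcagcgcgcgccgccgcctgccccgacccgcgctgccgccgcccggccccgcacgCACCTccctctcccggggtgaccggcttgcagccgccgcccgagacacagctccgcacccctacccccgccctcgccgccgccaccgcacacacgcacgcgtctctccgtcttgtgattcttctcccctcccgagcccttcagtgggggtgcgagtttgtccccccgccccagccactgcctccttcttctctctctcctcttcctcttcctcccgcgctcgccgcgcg

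The Epha5 promoter held 1 such match, Efna5 1, Efnb2 2 and Efnb1 0. On either strand, CACCT was found in 5 of the 12 promoters of the 10 genes, 1 each of Epha1, Epha5, Efna1, Efna5 and Efnb2. Of 32851 promoters of the same length, 51.9% held it. The longer E-box CACCTG, which contains CACCT, was found in 2 of the 12, those of Epha1 and Efnb2, against 20.2% of all promoters. TCACACCT, a T-box half-site that also contains CACCT, was found in 0 of the 12 promoters of the 10 genes and in 1.28% of all promoters. The match is a description of these letters, and the genes with the higher and the lower ratios were not separated by it.

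Levels differed over the lineages, with some genes sharing their highest gate, and that gate was the same in both libraries for all 10. For Ephb3 that gate rested on 4 UMIs in the untreated library. For 2 ligands the lead in the dTAG-13 library was small. Efna1 stood at 8.43 CPM in Tbx6-positive and 8.41 CPM in T-positive cells, and Efna5 at 19.4 CPM in Sox17-positive and 18.1 CPM in T-positive cells. With each cell given to 1 of 10 exclusive classes, the highest class differed between the libraries for Ephb3 and for Efna5, which was highest in the Sox17 class without dTAG-13 (22.9 CPM) and in the class of T with Sox2 with it (20.7 CPM). Gate-positive cells were set against gate-negative cells of the same library for each gene and gate. In the untreated library 65 of 80 such pairs had the mean of 5 CPM, and 13 were at least 1.5-fold higher and 20 at least 1.5-fold lower in the positive cells. Over all genes, 5.89% of pairs were higher and 6.61% lower by the same rule. In the dTAG-13 library 66 pairs had the mean, with 10 higher and 19 lower, against 4.04% and 6.06% over all genes. Of 64 pairs with the mean in both libraries, 9 were higher in both, 15 were lower in both and 0 went opposite ways. Gates share cells, so these pairs are not independent of each other.

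**Figure D1:**
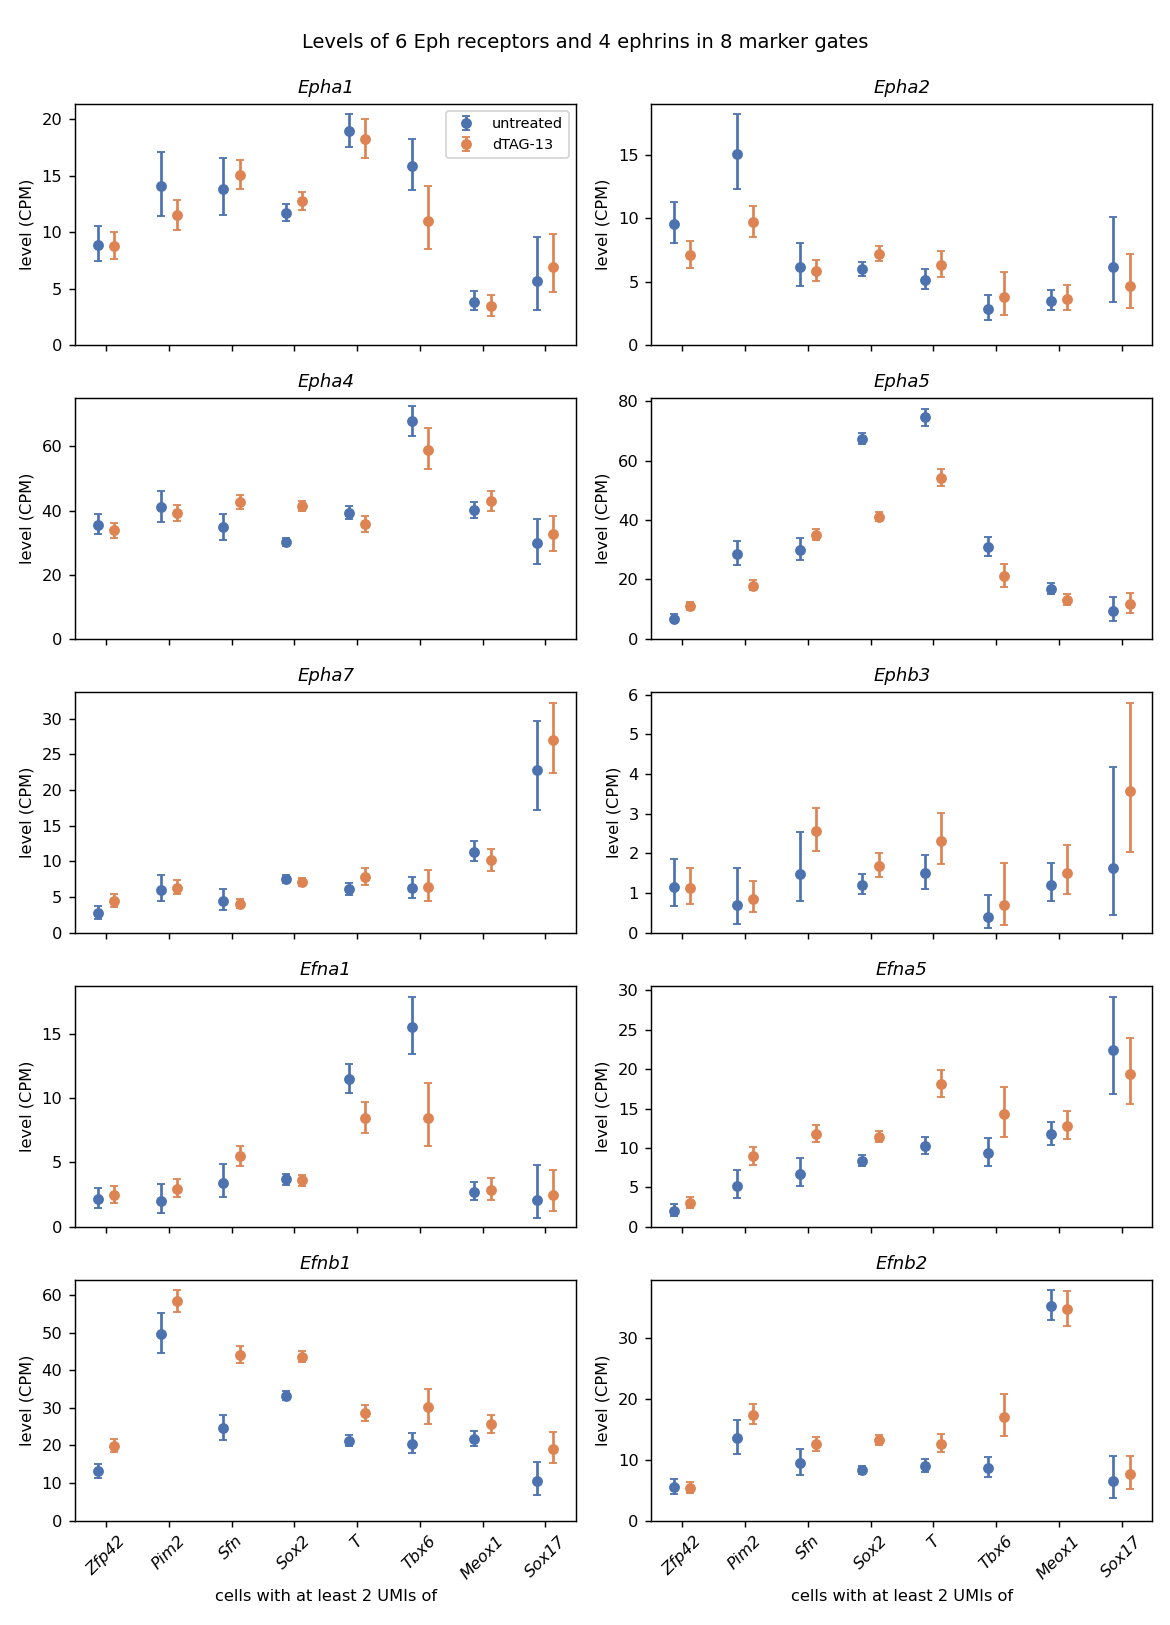
Level in CPM of each of the 6 receptor and 4 ephrin genes (vertical axis, from 0, own scale per gene) in cells positive for 8 marker genes (horizontal axis), for the untreated library in blue and the dTAG-13 library in orange. Bars are exact 95% Poisson intervals, and the highest gate of each gene is the same in both libraries, for example Meox1 for Efnb2 at 35.3 and 34.8 CPM. In the dTAG-13 library Efna1 is nearly level between Tbx6 (8.43 CPM) and T (8.41 CPM).

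Among the receptors, Epha5 ranged most widely in the untreated library, by 10.9-fold between its highest and lowest gate, but not in the dTAG-13 library, where its 4.98-fold was below the 6.69-fold of Epha7, the 5.34-fold of Epha1 and the 5.18-fold of Ephb3. In the untreated library it stood at 74.5 CPM (71.7 to 77.5) in T-positive and 67.4 CPM (65.5 to 69.2) in Sox2-positive cells, and at 6.81 CPM (5.54 to 8.28) in Zfp42-positive cells. In the dTAG-13 library the same gates stood at 54.3, 41.2 and 10.9 CPM. Zfp42-positive cells were thus lowest and T-positive cells highest in both libraries. With dTAG-13 the Sox17 gate stood close to the lowest, at 11.8 CPM, and over exclusive classes the Sox17 class was lowest there, at 8.71 CPM. The peak lay in cells positive for both T and Sox2, the marker pair of neuromesodermal progenitors, that passed none of the other 6 gates. There Epha5 reached 102 CPM in the untreated and 83.6 CPM in the dTAG-13 library. After each cell was thinned to 5000 UMIs, Epha5 was detected in 23.6% of untreated T-positive cells and in 3.06% of untreated Zfp42-positive cells. Median depths of those gates before thinning were 21057 and 26202 UMIs, and the shares without thinning were 52.2% and 10.1%.

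Epha4 was highest in Tbx6-positive cells, the presomitic mesoderm gate, at 67.8 CPM (63.3 to 72.6) without and 59.0 CPM (52.9 to 65.6) with dTAG-13. The other gates held between 29.8 and 41.0 CPM in the untreated library, and between 32.5 and 43.0 CPM in the dTAG-13 library. Epha4 was therefore the most evenly spread of the 10 genes in the untreated library, at 2.28-fold between the highest and the lowest gate. Its order of gates also moved most between the libraries, with a Spearman coefficient of 0.57 over the 8 gates, against 0.71 to 0.98 for the other genes.

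Epha1, the founding member of the receptor family, was highest in T-positive cells at 18.9 CPM in the untreated and 18.2 CPM in the dTAG-13 library. It was lowest in Meox1-positive cells, the somite gate, at 3.85 and 3.42 CPM. Epha2, a receptor for ephrin-A1, was highest in Pim2-positive cells at 15.1 CPM (12.3 to 18.2) and 9.71 CPM (8.54 to 11.0). Its next gate in the untreated library was Zfp42 at 9.53 CPM, so the cells of epiblast and naive character led there. In the dTAG-13 library Sox2-positive cells at 7.18 CPM and Zfp42-positive cells at 7.08 CPM came next, so only the Pim2 gate led in both. Epha7, another receptor for class A ephrins, was highest in Sox17-positive cells at 22.8 and 27.0 CPM. Meox1-positive cells followed at 11.4 and 10.1 CPM, and Zfp42-positive cells held 2.72 and 4.47 CPM. Ephb3 lay between 0.403 and 3.57 CPM over all gates of both libraries, and none of its 7 neighbouring steps in the order of gates had intervals apart in either library.

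Among the ligands, Efnb2 was a gene of Meox1-positive cells, at 35.3 CPM (32.9 to 37.9) without and 34.8 CPM (32.0 to 37.8) with dTAG-13. Zfp42-positive cells were lowest at 5.52 and 5.39 CPM. After thinning, 13.5% and 14.9% of Meox1-positive and 3.06% and 2.62% of Zfp42-positive cells held a UMI of Efnb2, against 43.3% and 44.6%, and 11.8% and 12.3%, without thinning. The Meox1 median depths were 20926 and 21828 UMIs, and those of Zfp42 26202 and 27324 UMIs, so the gate with the lower share was the deeper one.

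Efna1 was highest in Tbx6-positive cells, at 15.5 CPM (13.4 to 17.8) and 8.43 CPM (6.24 to 11.1), followed by T-positive cells at 11.5 and 8.41 CPM. In the untreated library the remaining 6 gates held between 1.97 and 3.67 CPM. Efna1 and Epha4 thus shared their highest gate, though with dTAG-13 the Efna1 levels of Tbx6-positive and T-positive cells were nearly equal. Efna5 was highest in Sox17-positive cells at 22.4 and 19.4 CPM and lowest in Zfp42-positive cells at 2.04 and 2.98 CPM. Efnb1 was highest in Pim2-positive cells at 49.7 CPM (44.6 to 55.2) and 58.3 CPM (55.4 to 61.3) and lowest in Sox17-positive cells at 10.6 and 19.2 CPM. The Sox17 gate therefore had the highest level of Efna5 and the lowest of Efnb1.

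In the untreated order of gates, neighbouring levels were apart, meaning that their intervals did not meet, in 4 of 7 steps for Epha5, 3 for Efnb1, 2 each for Epha2, Epha7, Efna1 and Efna5, 1 each for Epha1, Epha4 and Efnb2, and 0 for Ephb3. For Efnb2 the step that was apart lay below Meox1, and for Epha4 below Tbx6.

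Receptor and ligand levels differed among sets of presomitic and somite cells, and some sets held both. The cells were split further by pairs of marker genes, in which positive again means at least 2 UMIs and negative means 0 UMIs. These sets were chosen after the gate values were known. Efnb2 stood at 2.86 CPM (1.88 to 4.16) in the 401 untreated cells positive for Tbx6 and negative for Meox1. It stood at 35.5 CPM (27.9 to 44.5) in the 74 cells positive for both and at 33.7 CPM (31.0 to 36.5) in the 733 cells positive for Meox1 and negative for Tbx6. The ligand was thus low in presomitic cells without Meox1 and high once Meox1 was present, with a log2 ratio of 3.17 (3.00 to 4.17) between the last and the first set. In the dTAG-13 library the 3 sets held 6.22, 29.8 and 34.5 CPM in 104, 55 and 509 cells, and the same ratio was 2.30 (1.77 to 3.26).

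Epha4 ran the other way in the untreated library, at 72.9, 48.3 and 36.6 CPM in these 3 sets. In the dTAG-13 library the levels were 61.8, 63.5 and 36.0 CPM, so that the middle set differed from the first by a log2 ratio of 0.04 (-0.29 to 0.36). Efna1 ran in the same direction as Epha4, at 17.8, 7.58 and 2.16 CPM in the untreated and 12.8, 3.78 and 2.48 CPM in the dTAG-13 library. Epha1 stood at 17.8, 7.58 and 3.35 CPM in the untreated library. The counts of both genes happened to be equal in the first pair of sets, at 168 UMIs and at 16 UMIs, and in the same way Efnb2 and Epha4 each had 124 UMIs in the Mesp2-positive cells described next. Both class A genes were thus lower, and Efnb2 higher, in the sets with Meox1.

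Cells with Mesp2, the factor that sets the segment border and the anterior part of the forming somite, had high levels of both partners. The 83 untreated Mesp2-positive cells held 59.1 CPM (49.1 to 70.4) of Efnb2 and 59.1 CPM (49.1 to 70.4) of Epha4, and the 64 dTAG-13 cells held 56.7 and 74.2 CPM. Of these cells 80.7% and 65.6% were Meox1-positive. Relative to cells positive for Meox1 and negative for Tbx6, Efnb2 was higher by a log2 ratio of 0.79 (0.52 to 1.09) and 0.70 (0.41 to 1.02), and Epha4 by 0.67 (0.40 to 0.97) and 1.02 (0.76 to 1.31). Epha5 in Mesp2-positive cells stood at 25.2 CPM without and 5.97 CPM with dTAG-13, for a log2 ratio of -1.91 (-3.12 to -1.16).

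The pair was also split by markers of the parts of a somite. Tbx18 marks the anterior and Uncx the posterior part of a somite. In the untreated library, 77 cells positive for Uncx and negative for Tbx18 held 56.9 CPM (47.0 to 68.2) of Efnb2, and 27 cells of the opposite kind held 21.5 CPM (12.3 to 34.9). Epha4 was reversed, at 30.1 CPM (23.1 to 38.6) in the Uncx-positive and 64.4 CPM (47.5 to 85.4) in the Tbx18-positive cells. The log2 ratio of Uncx-positive over Tbx18-positive cells was 1.37 (0.65 to 2.26) for Efnb2 and -1.07 (-1.66 to -0.52) for Epha4. In the dTAG-13 library, with 27 and 11 cells, Efnb2 stood at 53.5 and 12.3 CPM and Epha4 at 23.6 and 58.3 CPM, ratios of 2.04 (0.66 to 4.06) and -1.27 (-2.30 to -0.31). The opposite pattern of ligand and receptor was thus measured in both libraries, from few cells in the treated one.

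**Figure D2:**
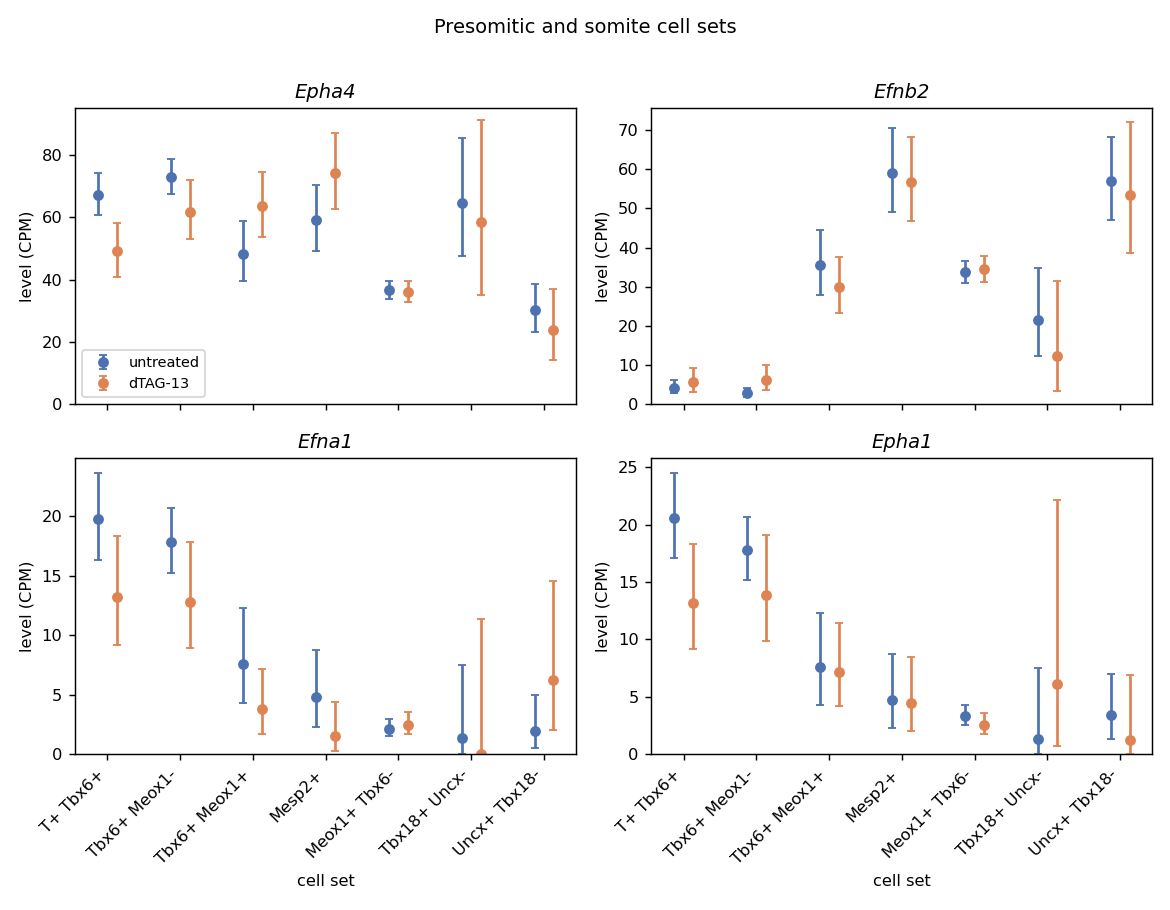
Level in CPM (vertical axis, from 0) of Epha4, Efnb2, Efna1 and Epha1 in 7 overlapping sets of presomitic and somite cells (horizontal axis; plus, at least 2 UMIs; minus, 0 UMIs), untreated in blue and dTAG-13 in orange. Bars are exact 95% Poisson intervals, and Efnb2 is low in cells with Tbx6 and without Meox1 (2.86 and 6.22 CPM) and high in Mesp2-positive and Uncx-positive cells, where Epha4 is respectively high and low.

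Epha4 and Efnb2 were also counted within single cells. Of 507 untreated Tbx6-positive cells, 58.8% held Epha4 without Efnb2, 4.34% Efnb2 without Epha4 and 7.50% both. Of 179 dTAG-13 Tbx6-positive cells, 40.2% held Epha4 alone, 5.03% Efnb2 alone and 19.6% both. If the genes were detected independently of each other, their own shares (66.3% and 11.8% untreated, 59.8% and 24.6% with dTAG-13) would give 7.84% and 14.7% with both. The share seen was thus close to that value without and above it with dTAG-13. Being above it was not particular to this pair. In the same treated cells the shares were 29.1% against 23.7% for Epha4 with Efnb1 and 10.1% against 8.12% for Epha5 with Efna5. They were 7.82% against 5.49% for Epha1 with Efna1, and 13.41% against 13.36% for Epha4 with Efna1. The share with both Epha4 and Efnb2 was higher in the treated library. There 30.7% of Tbx6-positive cells were also Meox1-positive, against 14.6% in the untreated library. The part of this overlap in the difference was not tested. In Meox1-positive cells the shares with both of these genes were 20.2% and 24.4%, against 18.2% and 20.01% for independent detection. These shares depend on depth and were not corrected for free RNA, and the Tbx6 gate had medians of 21463 and 24487 UMIs.

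A few cells positive for T and for the notochord gene Noto, 27 untreated and 12 treated, also held Efnb2 at 52.6 CPM (34.6 to 76.5) and 39.8 CPM. All T-positive cells together held 9.01 and 12.7 CPM. Cells positive for the endothelial gene Cdh5, 24 and 14 in number, held 16.1 CPM (7.71 to 29.6) and 18.7 CPM (8.09 to 36.9) of Efnb2.

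The difference between the libraries was then read within each gate. Of 80 pairs of gene and gate, 60 had a mean of 5 CPM, of which 8 were at least 1.5-fold higher and 3 at least 1.5-fold lower with dTAG-13. Over all genes 2.16% of such pairs were higher and 1.45% lower. Of the 8 higher pairs, 7 were of the ligands Efna5, Efnb1 and Efnb2 and 1 was of Epha5, and the lower pairs were of Epha5 and Efna1. Efna5 in T-positive and Efnb1 in Sox17-positive cells stayed past 1.5-fold under all other settings computed for them (11 and 9), and the other pairs under 5 to 10 of 10 or 11. Pairs of 1 gene share cells and are not independent.

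Over the overlapping gates Efnb1 had the most even difference. Its level was higher in the treated library in 8 of 8 gates with intervals above 0, at log2 ratios from 0.22 in Meox1-positive to 0.82 (0.64 to 1.06) in Sfn-positive cells, where it stood at 24.6 and 44.1 CPM. In Sox17-positive cells it stood at 10.6 and 19.2 CPM, a ratio of 0.80 (0.21 to 1.55). The 10 endothelial genes summed to 75.8 CPM in untreated and 29.6 CPM in treated Sox17-positive cells. The part of this difference in the Efnb1 ratio was not tested. The Sfn gate held different cells in the libraries, since the 10 naive pluripotency genes summed to 2487 CPM in untreated and 995 CPM in treated Sfn-positive cells, of which 35.1% and 16.7% were also Zfp42-positive. In the exclusive Sfn class, which holds no Zfp42-positive cells, the ratio of Efnb1 was 0.57 (0.36 to 0.83), short of 1.5-fold. Over the exclusive classes Efnb1 did not stand apart: it was higher in 9 of 10 classes, 5 with intervals above 0, and Efnb2 was higher in 9 with 6 such intervals and Efna5 in 9 with 3.

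Efna5 was at least 1.5-fold higher in 3 gates. In T-positive cells it stood at 10.2 CPM (9.20 to 11.4) without and 18.1 CPM (16.4 to 19.9) with dTAG-13, a ratio of 0.76 (0.61 to 1.03). In the exclusive class of T with Sox2 the levels were 9.27 and 20.7 CPM, a ratio of 1.08 (0.78 to 1.55). Sfn-positive cells gave 6.74 and 11.8 CPM and Pim2-positive cells 5.21 and 8.93 CPM, which passed 1.5-fold under 7 and 5 of 11 other settings. Both calls ended without doublet removal and with exclusive classes, where the ratios were 0.38 (-0.0029 to 0.84) for Sfn and 0.45 (-0.05 to 1.11) for Pim2. The difference was therefore clearest in T-positive cells, while Meox1-positive cells, at 11.8 and 12.8 CPM, had an interval that included 0.

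Efnb2 stood at 8.71 CPM (7.15 to 10.5) in untreated and 17.0 CPM (13.8 to 20.7) in treated Tbx6-positive cells, a ratio of 0.89 (0.56 to 1.37). Meox1 was found in more of the treated Tbx6-positive cells, as given above. Among Tbx6-positive cells without Meox1 the ratio was 0.90 (0.16 to 2.05), at 2.86 and 6.22 CPM, and among those with Meox1 it was -0.24 (-0.74 to 0.24). In Sox2-positive cells Efnb2 stood at 8.35 and 13.2 CPM, a ratio of 0.60 that passed 1.5-fold under 6 of 11 other settings (0.45 to 0.90) and was 0.50 without doublet removal. It stood in Sox2-positive cells without T and Zfp42 at 10.3 and 18.3 CPM, a ratio of 0.77 (0.64 to 1.02). Meox1-positive cells, where the gene was highest, differed by -0.02 with an interval from -0.18 to 0.14.

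Efna1 was lower in Tbx6-positive cells, at 15.5 and 8.43 CPM, a ratio of -0.81 (-1.36 to -0.42), and in T-positive cells at a ratio of -0.41 (-0.70 to -0.20). Among Tbx6-positive cells without Meox1 the levels were 17.8 CPM (15.2 to 20.7) and 12.8 CPM (8.92 to 17.8), whose intervals met. Thinning to 5000 UMIs gave a ratio of -0.43 in Tbx6-positive cells.

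Epha5 differed in direction between gates. It was lower with dTAG-13 in Sox2-positive cells at 67.4 and 41.2 CPM, a ratio of -0.70, and in Pim2-positive cells at 28.7 and 17.9 CPM, a ratio of -0.65. In Zfp42-positive cells it was higher, at 6.81 and 10.9 CPM, a ratio of 0.61 (0.34 to 1.03). Intervals lay below 0 in 5 gates and above 0 in 2. With exclusive classes the ratio was -0.35 (-0.45 to -0.27) for Sox2 and -1.11 (-1.42 to -0.88) for Pim2, and it was below 0 in 9 of 10 classes. Among the other receptors, Epha4 was higher in Sox2-positive cells at 30.3 and 41.4 CPM, a ratio of 0.44 (0.37 to 0.53). In Sox2-positive cells without T and Zfp42 it stood at 27.5 and 46.7 CPM, a ratio of 0.74 (0.64 to 0.88) that is past 1.5-fold. That set did not leave out cells of the Sfn and Pim2 gates. Sfn-positive cells were 7.69% of untreated and 23.9% of treated Sox2-positive cells, and Pim2-positive cells 5.35% and 16.5%. In the exclusive Sox2 class, which leaves them out, the ratio of Epha4 was 0.55 (0.44 to 0.69), short of 1.5-fold. Epha2 in Pim2-positive cells stood at 15.1 and 9.71 CPM, a ratio of -0.58 (-0.97 to -0.29) that lay next to the 1.5-fold limit. No pair of Epha1, Epha2, Epha4 or Epha7 with a gate was past the limit, but this depended on the setting. Epha2 in Pim2-positive cells was past it with exclusive classes (-0.79), with thinned cells (-0.98) and without doublet removal (-0.63). With exclusive classes Epha2 was also higher in the Sox2 class (0.62) and Epha1 lower in the Tbx6 class (-0.59), and thinning called 4 further pairs of Epha1, Epha2 and Epha7.

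**Figure D3:**
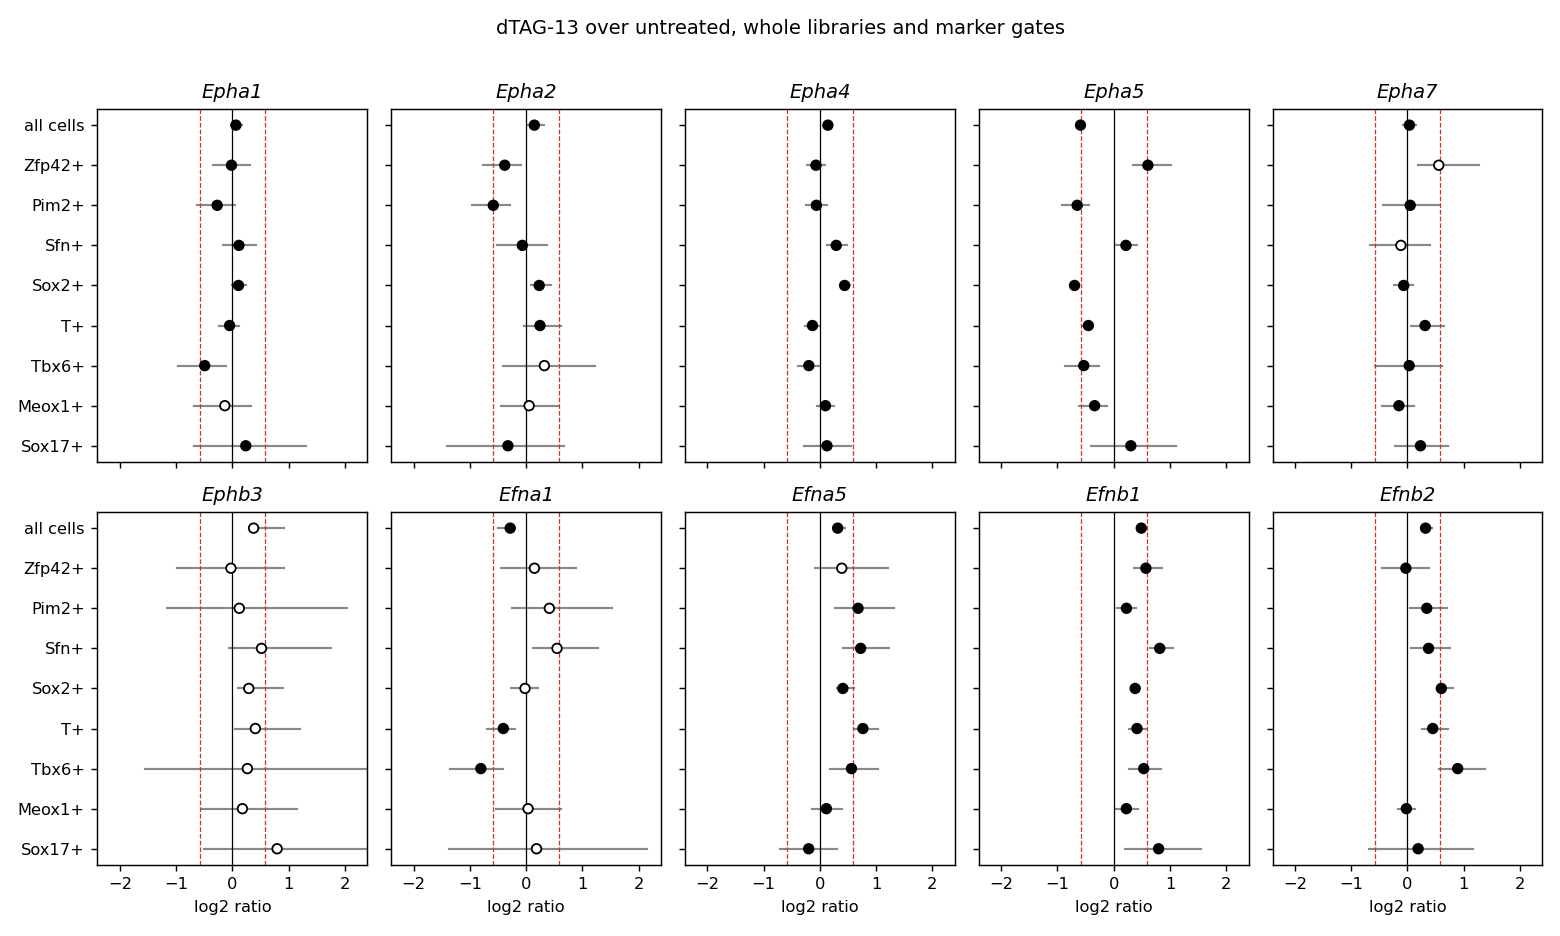
Log2 ratio of the level with dTAG-13 over untreated (horizontal axis) in all cells and in cells positive for 8 marker genes (vertical axis), for each of the 10 genes. Filled points have a mean of at least 5 CPM, open points do not, grey lines are 95% intervals of the plain ratio (cut at the edge of the axis), dashed red lines mark 1.5-fold, and Efnb1 lies above 0 in all 8 gates (0.22 to 0.82).

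The libraries also differed in which cells they held. Pim2-positive cells made up 4.14% of untreated and 13.4% of dTAG-13 cells, Sfn-positive cells 319 of 6231 and 1338 of 6688, and Tbx6-positive cells 8.14% and 2.68%. Over whole libraries, 10 of 10 epiblast markers and 6 of 6 surface ectoderm markers with the mean of 5 CPM were higher with dTAG-13, and 5 of 6 presomitic and 5 of 7 neural markers were lower. Of 7 genes of the dissociation response with that mean 0 were past 1.5-fold, with a median ratio of 0.34. Among all genes with that mean 2.47% were higher and 1.08% lower. Each whole-library ratio was therefore divided over the 10 exclusive classes into a part for differing class shares and a part for differing levels within classes. For Epha5 the parts were -0.20 for shares and -0.39 for levels. The level part was 0.39 for each of Efnb1, Efnb2 and Efna5, with share parts of 0.10, -0.07 and -0.08. For these 4 genes the level part was the larger. The classes were coarse, and 19.0% of untreated and 22.1% of treated cells fell in the class that passed no gate. A differing mix of cells inside a class counts in the level part, and how much of that part it made up was not tested. Epha2 had a share part of 0.18 and a level part of -0.04, and Efna1 had -0.14 and -0.15.

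**Figure D4:**
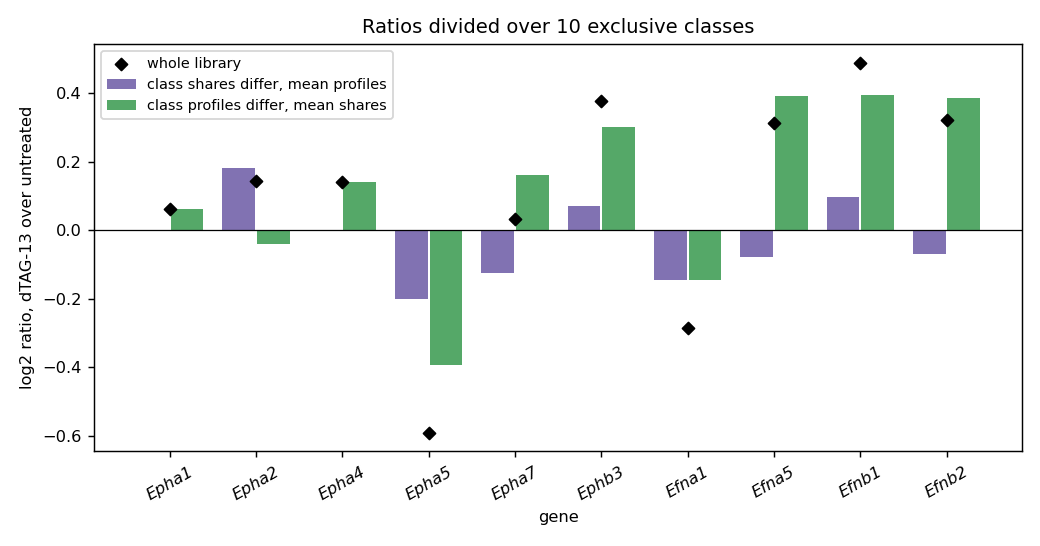
Log2 ratio of dTAG-13 over untreated for each of the 10 genes (horizontal axis) in the whole library (black diamonds), divided into the part from differing shares of 10 exclusive classes (purple bars) and the part from differing levels within classes (green bars). Bars start at 0, there are no error bars, and the level part of Efnb1, Efnb2 and Efna5 is 0.39 each while that of Epha5 is -0.39.

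Genes with a pattern like that of each member were sought over the 10 classes of both libraries, 20 points that share libraries, among 6933 genes with at least 20 CPM in 1 class. The 3 highest Pearson coefficients of log2 levels are given as a description. For Epha1 they were those of Cenpx (0.95), Fgf17 (0.93) and Aldh5a1 (0.91), and for Efna1 those of Cox7a2 (0.93), Wnt3a (0.91) and Gnal (0.91). Fgf17 and Wnt3a encode secreted signals of the tail bud, and both genes were highest in the untreated T class. Epha5 was most like Igfbpl1 (0.95), Dlg1 (0.94) and Meis3 (0.93), and Efnb2 most like Add3 (0.89), Eno3 (0.88) and Foxp1 (0.81). Efnb1 went with Hmgn5 (0.93), Cdca8 (0.92) and Arl4c (0.92), and Epha2 with Pipox (0.88), Clpb (0.87) and Calca (0.86). Epha7 went with Cald1, Fmnl2 and Slc31a1 (0.91 to 0.92), and Efna5 with Gabarap, Spcs1 and Tmed10 (0.94 to 0.96). The likeness was weakest for Epha4, with Gen1, Lor and Dip2c (0.73 to 0.76), and for Ephb3, with Erlin2, Kank1 and Slu7 (0.77 to 0.79). Between members the highest coefficients were 0.75 for Epha1 with Epha5, 0.71 for Epha1 with Efna1 and 0.68 for Epha7 with Efna5.

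Over whole libraries the rest of the family had no gene with the mean at 1.5-fold. Of the 12 other Eph and ephrin genes 6 had a mean of 5 CPM, and 0 of these were counted as higher or lower, with a median ratio of -0.29. Among all genes with that mean 2.47% were higher and 1.08% lower over whole libraries, so the 0 of 6 does not set them apart. Ephb2, a receptor for class B ephrins, stood at 13.4 and 17.2 CPM over whole libraries. Ephb4, the receptor that pairs with Efnb2 in vessels, stood at 9.54 and 7.70 CPM, and Efna4 at 33.9 and 33.1 CPM. Efna2 stood at 9.21 and 6.66 CPM, Efna3 at 10.6 and 8.33 CPM and Efnb3, another class B ligand, at 8.13 and 6.33 CPM. Within gates 5 pairs of these genes with the mean were past 1.5-fold. Over all genes, 2.16% of pairs with the mean were higher and 1.45% lower. The number of pairs of these 12 genes with the mean is not given here, so the 5 cannot be set against those shares. In Tbx6-positive cells Ephb4 stood at 17.0 and 10.5 CPM, a ratio of -0.65, and Ephb1 at 11.1 and 5.85 CPM, a ratio of -0.82. Ephb2 had ratios of 0.77 in Zfp42-positive and 0.67 in Pim2-positive cells, and Efna2 one of -0.59 in Sox17-positive cells. In Tbx6-positive cells Efna3 stood at 19.0 and 14.8 CPM.

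Of 40 genes listed for Eph and ephrin signalling downstream of the receptors, 38 were in the tables and 32 had the mean, and 0 were counted as higher or lower, with a median ratio of -0.02. Of 20 genes listed for the somite boundary, 12 had the mean, of which 6 were lower and 0 higher with dTAG-13. Among all genes with the mean, 1.08% were lower and 2.47% higher by the same rule, so the 0 of 32 does not set the signalling genes apart. The lower ones with the largest ratios were Dll1 (41.9 and 17.4 CPM) and Dll3 (34.8 and 19.0 CPM), Notch ligand genes of the presomitic mesoderm, and Tcf15 (66.1 and 39.7 CPM) and Foxc1 (22.9 and 13.9 CPM), transcription factor genes of forming somites. The smaller share of Tbx6-positive and Meox1-positive cells moved with these whole-library values, and its part in them was not tested.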

How the data were processed

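The deposited counts are whole-number UMI counts per gene and cell barcode, made by the authors with 10x Genomics 3′ v3.1 chemistry and, per the submitters' processing notes, Cell Ranger 6.1.2 and the mm10 build. No normalization had been applied. Cells with at least 1000 genes and at most 10% mitochondrial UMIs were kept. The Scrublet threshold (scanpy 1.11.5) marked 1 and 0 barcodes, so the highest scores were removed at 0.8% per 1000 barcodes (424 and 496 barcodes). UMIs were then summed per library and cell set and divided by the set's total (numpy 2.4.6, scipy 1.17.1, pandas 2.3.3, Python 3.11.15). Exact Poisson, binomial and conditional intervals at 95% cover counting error only. Correction of free RNA was not applied.

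Gates needed at least 2 UMIs and 100 cells in each library. Exclusive classes took the first gate passed in the order Zfp42, Sox17, Sfn, Pim2, Meox1, Tbx6, T with Sox2, T, Sox2. The T with Sox2 class thus excludes Tbx6-positive cells. Members and lists were chosen with earlier results of these data known. Named genes were all members, the 3 most alike per member, other family genes with a mean of 5 CPM, and up to 4 counted genes per list. Alternatives were another prior, floor, scaling (edgeR 4.0.16, DESeq2 1.42.0 on R 4.3.3), cell filter, doublet setting, depth and gate. On simulated counts 100% of 200 genes changed by 1 on the log2 scale were recovered in the whole library (9536 genes) and in Tbx6-positive cells (9221 genes). Of unchanged genes, 0% and 0.35% were called. The simulated counts had counting error only, and the changed genes lay above the 5 CPM floor with a change larger than 1.5-fold. The simulation therefore does not tell how well calls near that limit or floor hold. GENCODE M21 matched 32235 of 32285 gene IDs and gave the gene overlaps. All 10 members matched a RefSeq promoter.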

Additional observations from a re-analysis of the deposited data

Results flagged for a closer look

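The log2 ratio of Epha5 with dTAG-13 over untreated went opposite ways in gates of the same 2 libraries. It was 0.61 in Zfp42-positive cells, at 6.81 and 10.9 CPM, against -0.65 in Pim2-positive and -0.70 in Sox2-positive cells, with counting intervals on opposite sides of 0. The difference between these gates was not tested, since there was 1 library per group. The value in Zfp42-positive cells turned to -0.31 with a gate of at least 1 UMI. Of the Zfp42-positive cells 86.6% and 86.1% also counted in the Sox2 gate.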

How the results depend on the processing

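No paired analysis was possible because each group had 1 library, and for the same reason no replicate could be left out. The count of 0 members at least 1.5-fold higher over whole libraries was 0 under all 9 alternatives. The count of 1 member lower, Epha5, became 0 with a prior of 5 CPM, without doublet removal, with cells thinned to 5000 UMIs, and without cells of over 60000 UMIs (63 and 82 cells). The 8 higher pairs of gene and gate became 4 with a prior of 5 CPM and 3 with a gate of at least 1 UMI after thinning. The 3 lower pairs became 7 with thinned cells and 5 with exclusive classes. Epha5 in Zfp42-positive cells reversed to -0.31 with a gate of at least 1 UMI and to -0.24 with that gate after thinning. The causes were not tested. The gate after thinning and the limit of 60000 UMIs were added after the data were seen. Gates with 100 cells in both libraries were 6 of 8 at 4 UMIs and 7 of 8 after thinning. Of 920 other values of single genes, 857 stayed within the counting interval's size, 61 moved further and 2 reversed. Scaling moved whole-library ratios by -0.04 (edgeR) and -0.05 (DESeq2).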
